A study of Mus musculus with 2 samples.

Results

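Cytosolic ribosomal protein genes encode the proteins of the 40S and 60S ribosomal subunits that translate nuclear-encoded mRNAs. They were taken by symbol, as the Rps and Rpl genes with a number plus Rplp0, Rplp1, Rplp2 and Rpsa, with at least 100 UMIs (unique molecular identifiers, the count of captured mRNA molecules) over both libraries. Of the 32285 genes in the tables, 83 had such a symbol and 81 were kept, 32 of the small subunit and 49 of the large subunit, spread over 19 chromosomes. They included all 77 standard ribosomal proteins looked for by name and 4 paralogs (Rpl22l1, Rps27l, Rpl3l and Rpl7l1). The genes left out were Rpl39l with 64 UMIs and Rpl10l with 0, and the lowest kept were Rpl3l with 2652 and Rpl7l1 with 5230. Fau, which encodes a ribosomal protein fused to a ubiquitin-like domain, Rack1 and Rpl36al fall outside the naming rule and were not counted.

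The data were single-cell 3′ RNA sequencing libraries of blood neutrophils, 1 from WT mice and 1 from APP/PS1 mice, a transgenic model of Alzheimer’s disease that forms amyloid plaques in the brain. All mice were 7-month-old females without treatment, and the methods pooled 3 of them in each library. Red cells were lysed with ammonium chloride and neutrophils were enriched with a negative selection kit, and other leukocytes were still present in both libraries. Because each genotype had 1 library, there was no spread between replicates to test against, and p-values are not given. All intervals below are 95% intervals for counting error only, and a difference between genotypes cannot be told apart from a difference between these pools, mice or library preparations. Genotype could not be checked in the counts, which do not separate the human transgenes, and the promoters that drive them are not given in the sources used here.

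The WT library held 17123 cells and 92458623 UMIs and the APP/PS1 library 17645 cells and 84870864 UMIs, of which 14564 and 15208 cells passed the filters, and the libraries shared 83 barcodes. Cells were clustered without any ribosomal protein gene, so that the levels of these genes had no part in defining the cell types. Clusters were called neutrophil-like, monocyte-like and so on from marker genes, and are written below without the ending. Neutrophils, whose clusters had all 9 of 9 markers, made up 7607 WT cells and 9609 APP/PS1 cells, 52.2% and 63.2% of the kept cells. The other types were used as a reference within the same libraries.

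A ribosome needs its proteins in equal numbers, and vertebrate cells keep their supply together largely through translation. Ribosomal protein mRNAs begin with a C followed by a run of pyrimidines, the 5′ terminal oligopyrimidine (TOP) motif, through which mTOR and the RNA-binding protein Larp1 switch their translation on and off as a group. Neutrophils complete most of their protein synthesis in the bone marrow, where granule proteins are made in sequence, and circulate as short-lived cells with few ribosomes. A UMI is counted at the 3′ end of a transcript, so counts were not divided by gene length. Levels are given as CPM, the counts of a gene scaled to 1000000 UMIs of the cell type.

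The start of the mRNA is shown for 9 of the genes whose values follow, because the TOP motif is the sequence this class of mRNA is known for. Each window runs 5′ to 3′ from 10 bases before the RefSeq start to the 20 bases from it (GRCm38.p6, the build of the counts), and capitals mark a tract of a C followed by at least 5 more C or T, so at least 6 bases, searched on the strand of the gene and reaching within 5 bases of the start.
Rps9, chr7:3704031-3704060, plus strand: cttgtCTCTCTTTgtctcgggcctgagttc
Rps27, chr3:90213629-90213658, minus strand: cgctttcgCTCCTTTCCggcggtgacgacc
Rps18, chr17:33955646-33955675, minus strand: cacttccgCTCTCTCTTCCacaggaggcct
Rpl12, chr2:32961702-32961731, plus strand: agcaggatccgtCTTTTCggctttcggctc
Rpl10a, chr17:28328461-28328490, plus strand: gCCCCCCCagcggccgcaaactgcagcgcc
Rpl22l1, chr3:28805498-28805527, plus strand: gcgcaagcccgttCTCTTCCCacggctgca
Rps27l, chr9:66946076-66946105, plus strand: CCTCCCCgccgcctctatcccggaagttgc
Rpl26, chr11:68901556-68901585, plus strand: ggcaacttacagaaccggaagtcgcgtgta
Rpl37, chr15:5116603-5116632, plus strand: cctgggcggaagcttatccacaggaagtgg
The members that were high in neutrophils (Rps9, Rps27) and those that were low there (Rps18, Rpl12, Rpl10a) shown here had a marked tract. The tracts of Rpl10a and Rps27l end before the RefSeq start, so they lie outside the mRNA as annotated. The windows of Rpl37 and Rps16, also high in neutrophils, and of Rpsa, low there, did not hold these letters, nor did that of Rpl26, so members with and without a tract were found on both sides. The RefSeq promoter table held 61 of the 81 members, and 29 of them (47.5%) had the tract, against 4393 of all 27025 genes (16.3%), 5 of 18 other TOP or ribosome-linked genes (27.8%) and 15 of 69 mitochondrial ribosomal protein genes (21.7%). The table has no entry for Rpl29, Rplp1, Rps27a or Rpl3. Only the first listed start of each gene was searched, so a missing tract does not show that the mRNA lacks the motif.

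Ribosomal protein mRNA was a small part of the neutrophil transcriptome and a large part of every other nucleated blood cell type. It made up 3.41% of all neutrophil UMIs in WT and 3.51% in APP/PS1. In B cells, which use ribosomes to proliferate and to make antibody, it made up 27.1% and 28.2%. Classical monocytes held 18.9% in WT and 19.1% in APP/PS1, and nonclassical monocytes, which patrol the vessel wall, 15.9% and 15.02%. Neutrophils were the lowest leukocytes in both libraries, with no other leukocyte type under 14.96%. NK cells had 16.2% and 15.2%, basophils 15.3% and 14.96%, CD8 T cells 25.5% and 22.3%, and a T cell cluster led by Il7r and Trdc 22.1% and 21.2%. The erythroid cluster, reticulocytes in which haemoglobin mRNA took 626292 CPM (WT) and 566048 CPM (APP/PS1), had 3.58% and 3.41%, and its median cell had 1.42% and 1.92%. With called doublets removed its summed share was 1.35% and 1.74%, so that its values rest in part on such cells.

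**Figure D1:**
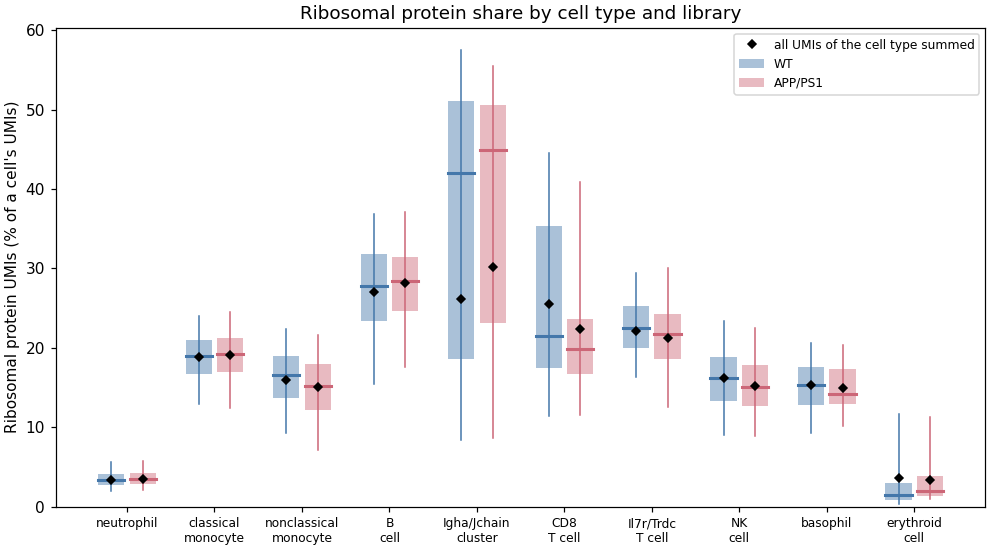
Ribosomal protein UMIs as a percent of a cell's UMIs (y axis) for each cell type (x axis) and library. Boxes run from the 25th to the 75th percentile of cells with the median as a line, whiskers from the 5th to the 95th percentile, and diamonds give the percent of all UMIs of the type summed. Neutrophils sit at 3.41% and 3.51%, below every other leukocyte type in both libraries.

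Single neutrophils spread over few percentage points, around a low mean. The mean neutrophil had 97.8 ribosomal protein UMIs in WT (SD 49.0 over cells) and 107.9 in APP/PS1 (SD 51.4), out of mean totals of 2870 and 3071 UMIs. The mean B cell had 1464 and 1685. As a percent of each cell's UMIs the neutrophil mean was 3.53% (SD 1.19) in WT and 3.64% (SD 1.15) in APP/PS1, and the 5th percentile of WT B cells (15.4%) lay above the 95th percentile of WT neutrophils (5.63%). Relative to the mean, the neutrophil spread was wider than that of classical monocytes, with 18.8% (SD 3.60) in WT and 19.02% (SD 3.84) in APP/PS1. In cells of 1500 to 4000 UMIs neutrophils had 3.56% and 3.70%. B cells in that window had 26.9% in WT and 25.4% in APP/PS1, so their order was opposite to that over all kept B cells. The split between the subunits was close to even, with small subunit genes holding 50.1% and 50.6% of the ribosomal protein UMIs in neutrophils and 45.1% to 48.7% in the other types.

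Free RNA in droplets could carry ribosomal protein mRNA from other cells into neutrophils, and the levels of genes of those other cells are given beside it. Genes that define B cells were present in neutrophils at 0.078% of their B cell level in WT and 0.079% in APP/PS1, and genes that define NK cells at 0.080% and 0.133%. Genes of classical monocytes stood at 1.46% and 1.20% and those of nonclassical monocytes at 2.27% and 1.94%. Ribosomal protein genes stood in neutrophils at 12.6% and 12.5% of the B cell level and 18.1% and 18.4% of the classical monocyte level, above each of these values. The amount of free RNA was not estimated, and its part in the neutrophil counts was not tested. The share also depends on what else a neutrophil makes. S100a8 and S100a9, the calprotectin genes, took 159948 CPM in WT neutrophils and 134743 CPM in APP/PS1 neutrophils, against 5614 to 36410 CPM in the other types.

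Summed over all members, the B cell level was 2.99 log2 above the neutrophil level in WT and 3.01 in APP/PS1, a mean of 2.998 or 7.99-fold. The value depended on how totals were set, falling to 1.99 log2 with edgeR's TMM factors and reaching 3.32 with totals that left out mitochondrial, haemoglobin, S100a8, S100a9 and ribosomal protein genes. Almost every member followed. Of 80 members with enough UMIs, 79 were more than 1 log2 higher in B cells, where 42.4% of all genes were, and the median over members was 3.18 against 0.68 over all genes. The numbers were 77 of 81 members in classical monocytes (41.2% of all genes), 77 of 81 in nonclassical monocytes (42.9%), 78 of 80 in CD8 T cells (44.3%) and 76 of 80 in NK cells (47.2%). In the erythroid cluster 12 of 79 members were more than 1 log2 above neutrophils, where 5.67% of all genes were.

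The fall from B cells to neutrophils was uneven between members. Rpl12, a protein at the base of the stalk that receives elongation factors, had 4092 CPM in WT B cells and 4138 CPM in APP/PS1 B cells but 67.0 and 62.9 CPM in neutrophils, 63.4-fold less. Rpl10a of the L1 stalk, which helps the spent tRNA leave, had 2572 and 2752 CPM in B cells and 60.5 and 48.9 CPM in neutrophils, 48.9-fold less. Rps18 and Rps20, both of the small subunit head, were 43.1-fold and 41.8-fold lower in neutrophils, and Rpl3, which reaches the peptidyl transferase centre, was 40.9-fold lower. Rpsa, also known as the laminin receptor, was 33.7-fold lower, with 4298 and 4560 CPM in B cells and 136 and 127 CPM in neutrophils. These are members of both subunits, and each was low in the neutrophils of both libraries.

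At the other end stood Rps9, a small subunit protein near the mRNA entry channel. It had 3424 CPM in WT neutrophils and 3531 CPM in APP/PS1 neutrophils against 4795 and 4819 CPM in B cells, 1.38-fold. Nonclassical monocytes had 3293 and 3216 CPM of Rps9 and NK cells 2390 and 2398 CPM, so that neutrophils were at or above both. Rps27a, made as a fusion to ubiquitin, was 2.47-fold higher in B cells than in neutrophils, Rpl37, a zinc-binding large subunit protein, 2.50-fold, and Rps27, a zinc-finger protein of the small subunit, 3.44-fold. The paralogs Rpl7l1 and Rps27l were 2.20-fold and 2.50-fold higher in B cells. Rpl3l had 4 and 3 UMIs in B cells, too few for a ratio.

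The make-up of the ribosomal protein mRNA pool therefore differed between neutrophils and the other types. The 6 most abundant members in neutrophils were Rps9, Rps27a with 1797 CPM in WT and 1904 in APP/PS1, Rps27 with 1313 and 1422 CPM, Rpl37 with 1152 and 1132 CPM, Rps16 with 947 and 965 CPM, and Rpl17, which lines the peptide exit tunnel, with 872 and 965 CPM. Rps9 alone held 10.0% of all ribosomal protein UMIs in the neutrophils of each library. It held 1.77% and 1.71% in B cells, 2.73% and 2.77% in classical monocytes and 1.48% and 1.58% in NK cells. Erythroid cells came nearest, with Rps9 at 3.98% and Rps27a at 2.95% as their leading genes (means of the libraries). Rps27a held 5.27% and 5.42% in neutrophils against 1.67% and 1.65% in B cells, and Rpl37 held 3.38% and 3.22% against 1.07% and 1.004%. The 10 most abundant members of a type held 37.9% of its ribosomal protein UMIs in neutrophils and 21.2% to 24.4% in the other types. Rpl12 held 0.197% and 0.179% of the pool in neutrophils and 1.51% and 1.47% in B cells, and Rpl3 held 0.188% and 0.164% against 0.890% and 0.907%. In B cells the leading gene was Rps24, another small subunit protein, with 3.11% and 3.02%, which held 1.57% and 1.48% in neutrophils.

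**Figure D2:**
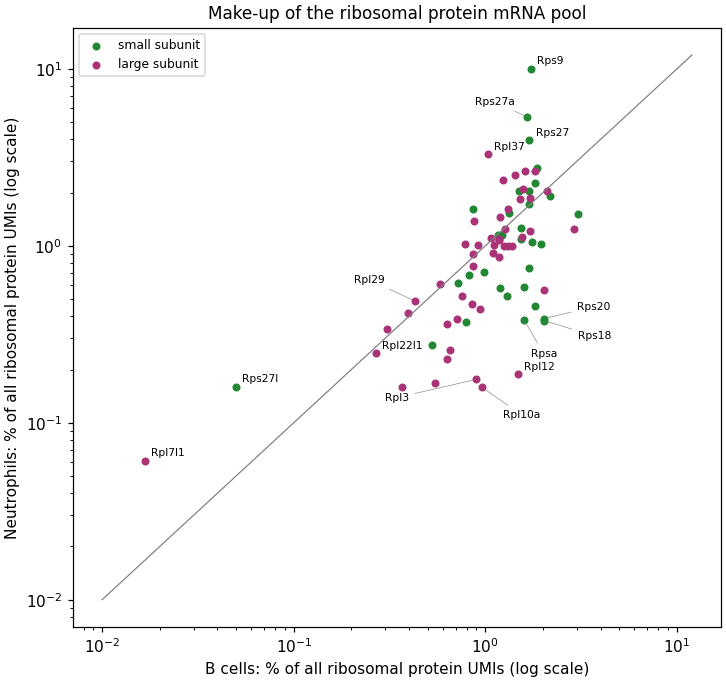
Share of each member in all ribosomal protein UMIs, in B cells (x axis, percent, log scale) and in neutrophils (y axis, percent, log scale), as means of the 2 libraries, with green points for small and purple points for large subunit genes. The line marks equal shares. Rps9 lies far above the line at 10.0% in neutrophils, and Rpl12, Rpl10a and Rpl3 lie below it. Rpl3l is not drawn.

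Relative to the pool, the members with the widest range over the 10 cell types were Rpl12 with 2.99 log2 between its highest and lowest type, Rps9 with 2.72, Rpl10a with 2.65, Rpl3 with 2.50 and Rps18 with 2.43. Neutrophils were the lowest type for 4 of these 5 and the highest type for Rps9. Across 79 members the log shares in neutrophils correlated with those in B cells at r = 0.587 and with those in classical monocytes at r = 0.735, while the neutrophils of the libraries correlated with each other at r = 0.994. By r, erythroid cells were the type nearest to neutrophils (0.878), then basophils (0.795), and B cells were the furthest. These r values are descriptions across genes that share libraries, and genes are not independent replicates. Levels of single members carry a further limit, because 60 of the 81 share 90-base stretches of their last 400 bases with pseudogenes or other genes. The share of such stretches was 98.4% for Rps27, 89.4% for Rpl10a, 89.1% for Rps27a, 81.03% for Rpl3, 41.2% for Rps9 and 0% for Rpl12, Rpl37, Rps16, Rps20 and Rpsa. How much of each difference between members comes from reads lost to such copies was not tested.

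A pair of lymphocyte clusters were mixed in their ribosomal protein share. Within CD8 T cells, 103 WT cells (29.9%) and 64 APP/PS1 cells (13.5%) had over 30% ribosomal protein UMIs, and 24 and 23 cells lay within 3 points of that limit, which was set after the values were seen. Cells above it had 488 and 346 CPM of Ccr7, the homing receptor of naive T cells, and 2521 and 6647 CPM of Ccl5, a chemokine of effector cells. Cells at or below it had 30.2 and 34.5 CPM of Ccr7 and 20474 and 28263 CPM of Ccl5. S100a9, a gene abundant in neutrophils, had 1512 and 909 CPM in cells above the limit and 10051.5 and 9195 CPM in those at or below it. The part of neutrophil RNA in these shares was not tested. The cells were divided by the share itself, so the shares on each side, 39.8% and 38.9% above the limit and 18.9% and 18.8% at or below it, follow from the limit and are a description only. The cells were not divided by Ccr7, and its part in the lower share of APP/PS1 CD8 T cells was not tested. The cluster led by Igha and Jchain, genes of antibody-secreting cells, had 26.1% and 30.2%. In it 28 WT cells and 52 APP/PS1 cells had over 30% ribosomal protein UMIs, with 24.02 and 0 CPM of Jchain, and the other 19 and 24 cells had 12088 and 17883 CPM of Jchain and 16.2% and 13.8% ribosomal protein UMIs. Mzb1, also a gene of antibody-secreting cells, had 937 and 736 CPM above the limit and 1574 and 763 CPM in the other cells. Igha had 0 and 10.8 CPM above the limit and 32033 and 26814 CPM in the other cells. S100a9 had 985 and 1320 CPM above the limit and 29856.5 and 22035 CPM in the other cells, and its part in their lower shares was not tested. By Jchain and Igha the plasma cell name thus held for the cells at or below the limit alone, while Mzb1 did not divide them as clearly. The cluster is given by its leading genes.

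Between genotypes, ribosomal protein genes as a group differed little in neutrophils. The summed level was 34072 CPM in WT and 35139 in APP/PS1, a log2 ratio of 0.044 (0.040 to 0.049). The median over all 81 members was 0.049 and the median over all genes tested was 0.054, so the members as a group lay where all genes lay. The ratio was 0.058 for the small and 0.030 for the large subunit. With TMM factors it was 0.0022 and with totals without the abundant gene classes −0.00027, so that no direction can be given for the group.

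The other types differed by −0.19 to 0.21 log2. The summed log2 ratio of APP/PS1 over WT was 0.019 in classical monocytes, 0.061 in B cells (whose cells of 1500 to 4000 UMIs had the opposite order), −0.086 in nonclassical monocytes, −0.089 in NK cells and −0.19 in CD8 T cells. It was 0.21 in the Igha and Jchain cluster, −0.059 in the Il7r and Trdc T cells, −0.034 in basophils and −0.070 in erythroid cells. With called doublets removed, the erythroid share was higher in APP/PS1 (1.35% and 1.74%), opposite to its ratio with all kept cells, and the Igha and Jchain cluster held 19.6% in WT and 29.4% in APP/PS1. The medians over members and over all genes were 0.034 and −0.033 in classical monocytes, −0.067 and −0.0094 in nonclassical monocytes, 0.071 and −0.0096 in B cells, −0.17 and 0.032 in CD8 T cells and −0.081 and 0.0069 in NK cells. Among neutrophils and these 5 types, the medians lay furthest apart in CD8 T cells, whose mix is given above. They lay further apart in erythroid cells, at −0.13 over members and 0.19 over all genes.

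Counted gene by gene, with a change defined as over 0.5 log2 in genes with at least 100 UMIs in the type, 1 of 81 members was lower in APP/PS1 neutrophils and 0 were higher, where 3.58% of all genes were lower and 4.63% higher. The single member was Rpl29. The counts were the same in classical monocytes, with 1 of 81 lower (3.18% of all genes) and 0 higher (2.21%), and in nonclassical monocytes, with 1 of 81 lower (2.55%) and 0 higher (2.02%). In B cells 1 of 80 was lower (6.63%) and 0 were higher (3.48%), and in NK cells 1 of 80 was lower (2.15%) and 0 were higher (3.32%). In CD8 T cells 2 of 79 were lower (5.16%), Rpl29 and Rplp1, and 0 were higher (5.25%). In these 6 types the share of members called was below the share of all genes, and Rpl29 was called in each. The other 4 types had fewer UMIs, so fewer genes could be counted. In the Igha and Jchain cluster 1 of 78 members was lower (13.3% of all genes), Rpl29, and 3 were higher (8.73%), which were Rps15 (log2 ratio 0.59), Rpl23a (0.58) and Rps23 (0.50). In the Il7r and Trdc T cells 1 of 79 was lower (4.78%), Rpl29, and 0 were higher (4.1%). In basophils 1 of 79 was lower (7.64%), Rpl29, and 1 was higher (5.05%), Rps27l, whose log2 ratio of 0.54 had an interval from −0.06 to 1.13. In erythroid cells 2 of 79 were lower (4.7%), Rpl29 and Rpl26, and 0 were higher (18.6%). Counting intervals are narrow for genes this abundant, and in neutrophils 45 members had an interval above 0 and 15 below 0, mostly at small ratios.

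**Figure D3:**
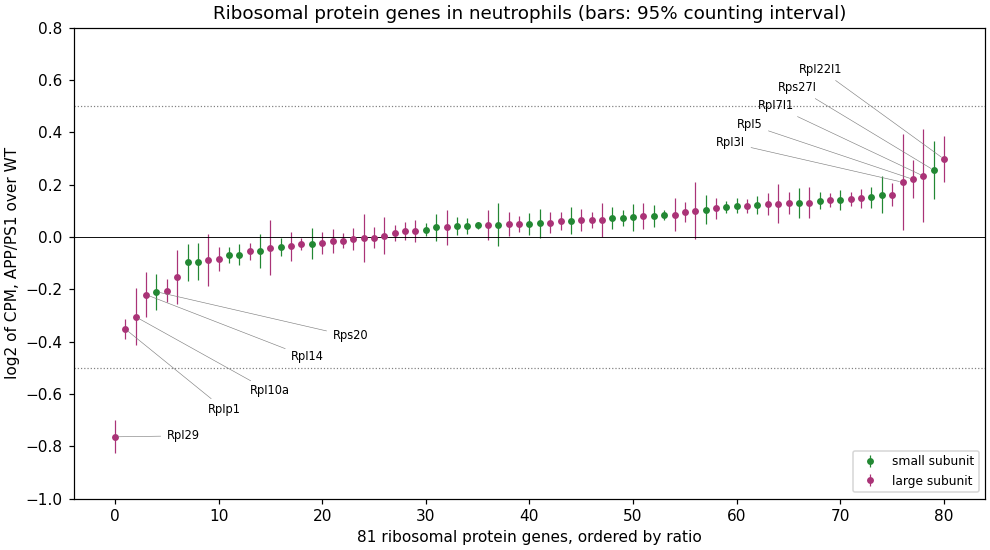
log2 of the APP/PS1 over WT ratio of CPM in neutrophils (y axis) for the 81 members in order of their ratio (x axis), with 95% counting intervals as bars and dotted lines at the 0.5 log2 limits. Rpl29 lies at −0.76, the next member Rplp1 at −0.35, and the highest, Rpl22l1, at 0.30.

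Rpl29 encodes a small basic protein of the large subunit that also binds heparin, and lies at chr9:106429454-106431568 on the plus strand. In neutrophils it had 4616 UMIs or 211 CPM in WT and 3674 UMIs or 125 CPM in APP/PS1, a log2 ratio of −0.76 (−0.83 to −0.70). The distance to the next member was larger than that between any other neighbours in the order. Classical monocytes had 1184 CPM in WT and 651 in APP/PS1, a log2 ratio of −0.86 (−0.90 to −0.83). Nonclassical monocytes had 837 and 425 CPM, a log2 ratio of −0.98 (−1.03 to −0.93). B cells had 1507 and 854 CPM, a log2 ratio of −0.82 (−0.91 to −0.73). Myeloid cells and lymphocytes thus gave ratios of the same direction and of like size, although their Rpl29 levels differed several-fold.

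The remaining types gave the same direction for Rpl29. NK cells had 846 CPM in WT and 433 in APP/PS1 (log2 ratio −0.96), CD8 T cells 1291 and 589 CPM (−1.13), and the Il7r and Trdc T cells 1374 and 663 CPM (−1.05). Basophils had 1035 and 533 CPM (−0.96), the Igha and Jchain cluster 1441 and 806 CPM (−0.84) and erythroid cells 212 and 110 CPM (−0.95). Over the 10 types and the alternative settings run on each, 88 values ranged from −1.20 to −0.37 and 86 were under −0.5. The 2 weakest came from removing called doublets, in the Igha and Jchain cluster with 168 UMIs in each library (−0.37, −0.69 to −0.05) and in erythroid cells with 74 and 25 UMIs (−0.38, −1.10 to 0.29). With each cell thinned to 1000 UMIs, 18.98% (18.1 to 19.9) of WT neutrophils and 11.9% (11.3 to 12.6) of APP/PS1 neutrophils had an Rpl29 UMI, after leaving out 2 APP/PS1 cells below that depth. Without thinning the shares were 42.5% and 30.2%, at median depths of 2552 and 2702 UMIs. Thinned B cells had 73.6% and 56.2%, and erythroid cells, the lowest type, 14.5% and 9.29%. No type in the libraries lacks ribosomal protein mRNA, so no background share could be set beside these.

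**Figure D4:**
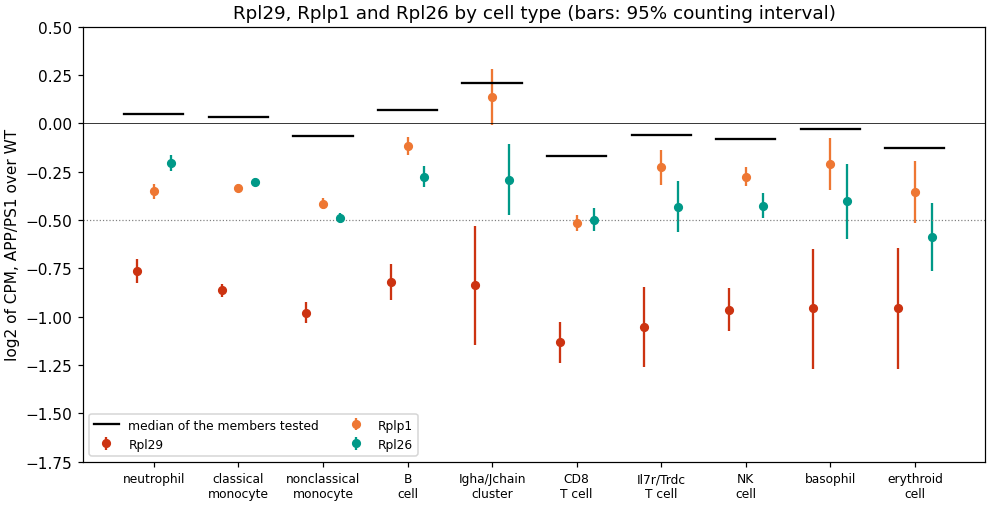
log2 of the APP/PS1 over WT ratio of CPM (y axis) of Rpl29, Rplp1 and Rpl26 in each cell type (x axis), with 95% counting intervals as bars, and the median of the members tested in that type as a black line. Rpl29 lies between −0.76 and −1.13 in all 10 types, below the dotted line at −0.5.

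Some genes around Rpl29 were lower in APP/PS1 as well. Among the 10 nearest expressed genes on each side, the neutrophil log2 ratios ran from −0.71 for Acpp and −0.65 for Aste1, both over 1 Mb away, to 0.53 for Hyal1. Acpp (−0.85 to −0.57) and Aste1 (−0.88 to −0.43) had intervals that overlap that of Rpl29. Its neighbour Parp3, which starts 0.041 Mb further on, had 7.33 and 5.05 CPM (log2 ratio −0.54, −0.87 to −0.21). Dusp7 and Twf2 on the other side had log2 ratios of 0.35 and 0.38, and Gnai2, the most abundant of these genes, −0.02. Of these 20 genes 3 were lower by over 0.5 log2 and 1 was higher, beside 3.58% and 4.63% of all genes in neutrophils, and whether the region has a part in the Rpl29 difference was not tested. Of the 90-base stretches at the end of the Rpl29 transcript, 37.6% occur in 17 other genes, and the part of such copies in the difference was not tested.

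The members nearest to Rpl29 in their ratios over the 10 cell types were Rpl26 (mean absolute difference 0.54 log2), Rplp1 (0.67) and Rps20 (0.81), so none was close. Rplp1, one of the acidic proteins of the stalk that recruits elongation factors, had 473 CPM in WT neutrophils and 371 CPM in APP/PS1 neutrophils, a log2 ratio of −0.35 (−0.39 to −0.31). Its ratio was −0.33 in classical monocytes, −0.41 in nonclassical monocytes, −0.51 in CD8 T cells, −0.27 in NK cells and −0.12 in B cells, and 0.14 in the Igha and Jchain cluster. In neutrophils as a whole its stalk partners did not share it, with Rplp2 at 379 CPM in each library and the anchor Rplp0 at 299 and 296 CPM. In basophils Rplp2 was lower as well, at −0.34 (−0.54 to −0.14) beside Rplp1 at −0.21, while in B cells Rplp2 was at −0.03. Rpl26, which sits near the exit tunnel, had 375 and 325 CPM in neutrophils (log2 ratio −0.20, −0.25 to −0.16). It was lower in APP/PS1 in all 10 types, by −0.30 in classical monocytes, −0.49 in nonclassical monocytes, −0.50 in CD8 T cells, −0.27 in B cells and −0.59 in erythroid cells, where it passed 0.5 log2. Rps20 had 144 and 124 CPM in neutrophils (−0.21) and ratios of −0.45 in CD8 T cells and 0.02 in B cells.

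Apart from these, the lowest ratios in neutrophils were those of Rpl10a, with 60.5 CPM in WT and 48.9 in APP/PS1 (log2 ratio −0.30, −0.41 to −0.20), and Rpl14, with 95.5 and 82.0 CPM (−0.22). In B cells Rpl10a had a ratio of 0.10. Rpsa had 136 and 127 CPM in neutrophils (−0.09). None of these reached 0.5 log2.

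The highest ratios in neutrophils belonged mostly to the paralogs, which the naming rule takes in beside the standard proteins. Rpl22l1, which can take the place of Rpl22, had 76.6 CPM in WT and 94.2 in APP/PS1, a log2 ratio of 0.30 (0.21 to 0.39). Rps27l, a p53-responsive relative of Rps27, had 50.3 and 60.1 CPM (0.26, 0.15 to 0.37). Rpl7l1, found in precursors of the large subunit, had 19.4 and 22.8 CPM (0.23, 0.06 to 0.41), and Rpl3l, best known from striated muscle, 18.6 and 21.6 CPM (0.21, 0.03 to 0.39). All 4 paralogs were thus among the 5 highest of the 81 ratios, with Rpl5, the carrier of 5S rRNA, at 116 and 135 CPM (0.22), and all were under 0.5 log2. Their standard counterparts were Rpl22 with 133 CPM in each library, Rps27 with 1313 and 1422 CPM (0.11), Rpl7 with 305 and 315 CPM (0.05) and Rpl3 with 64.1 and 57.6 CPM (−0.15). In NK cells the Rpl22l1 ratio was −0.19, so its direction was not shared by all types. Rpl39 with 346 and 341 CPM and Rpl10 with 347 and 353 CPM, whose own paralogs were at or near 0 UMIs, and Rps4x with 182 and 179 CPM were within 0.03 log2 of no difference.

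Rpl3l was the one member found mainly in neutrophils and monocytes. It had 407 UMIs in WT neutrophils and 636 in APP/PS1 neutrophils. Nonclassical monocytes had 452 and 312 UMIs, or 32.1 and 34.7 CPM, and classical monocytes 117 and 68 UMIs, or 5.63 and 4.98 CPM. Erythroid cells had 12 and 6 UMIs, or 6.14 and 6.04 CPM, and basophils 1 UMI in each library. No lymphocyte type had more than 8 UMIs in a library. Msrb1, a methionine sulfoxide reductase gene that begins 498 bases after the end of Rpl3l on the same strand of chromosome 17, had 4152 and 4233 CPM in neutrophils, 1495 and 1617 CPM in nonclassical monocytes, 1403 and 1280 CPM in classical monocytes and 384 and 257 CPM in B cells. Its part in the Rpl3l counts was not tested.

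Within neutrophils, clusters made without ribosomal protein genes and without the genes that differed most between the libraries differed in their ribosomal protein share. Cluster 1, led by Clec4n and Csf1, had 3.80% in WT and 3.96% in APP/PS1. Cluster 0, led by the stefin genes Stfa2 and Cstdc5, had 3.19% and 3.26%. Cluster 2, which carried platelet genes such as Itga2b, had 3.35% and 3.42%, and cluster 3, led by the interferon-induced Ifit3 and Ifit2, had 3.37% and 3.55%. Cluster 4, led by the specific granule genes Camp and Ngp, was low with 2.81% and 2.90%. The order was the same in both libraries for these 5 clusters, although clusters 2 and 3 did not differ beyond counting error in WT. Cluster 5, led by mitochondrial genes, had 4.397% and 3.80% in 88 and 71 cells, and cluster 6, led by platelet genes, 1.60% and 1.76% in 15 and 17 cells. In cluster 5, 68 of 70 members were above the other neutrophils, where 51.4% of all genes were (medians 0.29 and 0.0056 log2). The summed log2 ratio of APP/PS1 over WT in cluster 5 was −0.21 (−0.25 to −0.17), beside 0.044 in all neutrophils.

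**Figure D5:**
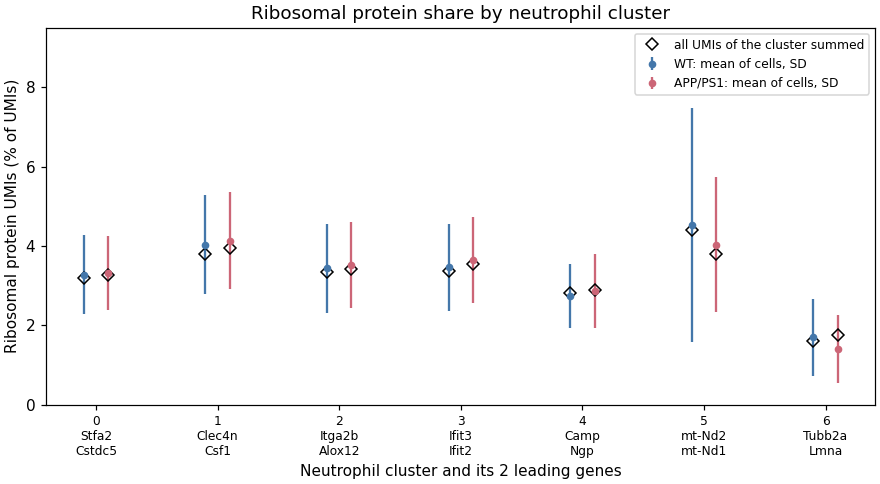
Ribosomal protein UMIs as a percent of UMIs (y axis) for the neutrophil clusters and their 2 leading genes (x axis) in each library. Points give the mean of cells with bars for 1 SD over cells, and open diamonds the percent of all UMIs of the cluster summed. Cluster 1 lies above clusters 0, 2, 3 and 4 in both libraries, by less than 1 SD over cells for clusters 0, 2 and 3. The distance to cluster 4 is larger, with means of 4.03% (SD 1.24) and 2.73% (SD 0.81) in WT. In APP/PS1 the means of clusters 1 and 4 are 4.13% (SD 1.22) and 2.87% (SD 0.93).

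In cluster 1 all 81 members were above the level of the other neutrophils, where 82% of all genes were, with a median of 0.27 log2 against 0.21 for all genes. The largest difference was that of Rps27l (0.66), with Rpl14 at 0.54 and Rpl7l1 at 0.53, and the smallest that of Rpl7a (0.03). In cluster 1 Rpl26 had 427 CPM (WT) and 367 CPM (APP/PS1) against 339 and 288 CPM in cluster 0.

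The granule gene cluster had the lowest ribosomal protein share of the 5 main clusters and the most ribosomal protein mRNA per cell. Its cells had a mean of 149 ribosomal protein UMIs in WT and 185 in APP/PS1, against 85.9 and 93.0 in cluster 0, and median totals of 4960 and 6294 UMIs against 2604 and 2773 (WT and APP/PS1). Of 80 members 23 were above the other neutrophils, where 35.9% of all genes were, with a median of −0.17 log2 against −0.22 for all genes. Some of the members that were most abundant in neutrophils were low in it. Rps27 had 710 and 699 CPM there (−0.99 log2 against the other neutrophils), Rps9 2151 and 1910 CPM (−0.81) and Rpl17 525 and 554 CPM (−0.79). Some members that were scarce in neutrophils were among the highest in it, with Rps20 at 221 and 192 CPM (0.66 log2), Rpl4 at 86.6 and 81.4 CPM (0.65), Rpl31 at 166 and 175 CPM (0.58) and Rpsa at 185 and 190 CPM (0.54). Other scarce members were low in it, with Rps27l at 32.01 and 40.7 CPM (−0.63), Rpl22l1 at −0.47, Rpl36a at −0.38 and Rpl14 at −0.37, and Rpl3l, which had 13 and 6 UMIs there, at −1.32. Rpl29 was lower in APP/PS1 in clusters 0 to 5 alike, with log2 ratios of −0.81, −0.74, −0.76, −0.70, −0.77 and −0.88 in that order. The paralogs were not higher in APP/PS1 in every cluster. In clusters 0 to 4 the log2 ratios of Rps27l were −0.11, 0.40, 0.33, 0.41 and 0.35. Those of Rpl22l1 were 0.39, 0.25, 0.23, 0.66 and −0.30. Rpl7l1 (−0.26) and Rpl3l (−1.82) were lower in cluster 4 and Rpl3l (−0.19) in cluster 3, on few UMIs, and both were higher in the rest of clusters 0 to 4.

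Other parts of the translation machinery were set beside the ribosomal proteins. Elongation factors were also low in neutrophils, with 1003 CPM in WT and 1039 in APP/PS1 and 2.95 log2 more in B cells, close to the 2.998 log2 of the ribosomal proteins. Eef1a1, the factor that brings aminoacyl-tRNA to the ribosome and a TOP gene itself, had 407 and 411 CPM in neutrophils and 3962 and 4234 CPM in B cells. Ribosome biogenesis genes had 503 and 533 CPM in neutrophils and 2.86 log2 more in B cells. Npm1, a nucleolar chaperone of ribosome assembly, had 20.8 and 19.3 CPM in neutrophils against 959 and 973 CPM in B cells. Initiation factors were far less different, with 5125 and 5546 CPM in neutrophils and 0.48 log2 more in B cells, as were mTOR and TOP regulators (954 and 988 CPM, 0.52 log2) and mitochondrial ribosomal proteins (2137 and 2274 CPM, 0.68 log2). Other TOP or ribosome-linked genes lay between (8809 and 8976 CPM, 1.41 log2), as did genes of ribosome hibernation and rescue (332 and 355 CPM, 1.67 log2). These are CPM ratios, and the median over all genes was 0.68 log2. TMM factors, which lowered the ribosomal protein value, were not applied to these lists. No direction is therefore given for initiation factors, mTOR and TOP regulators and mitochondrial ribosomal proteins, whose values lay near or under that median.

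Between genotypes, the calls in these lists in neutrophils stand beside the 3.58% of all genes that were lower and the 4.63% that were higher. No gene passed 0.5 log2 among 6 elongation factors, 33 initiation factors, 22 mTOR and TOP regulators and 13 hibernation genes tested. Of 31 biogenesis genes, Bysl was lower and Nop58 and Pes1 were higher in APP/PS1. Of 20 other TOP or ribosome-linked genes, the small nucleolar RNA host gene Snhg5 was lower with 5.08 and 3.22 CPM and Snhg12 was higher with 10.8 and 17.9 CPM. Of 61 mitochondrial ribosomal proteins, Mrpl46 was lower and Mrpl44 and Mrpl21 were higher. Each of the 6 biogenesis and mitochondrial genes named here was under 5 CPM in both libraries, so these rest on few UMIs.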

How the data were processed

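Raw UMI counts of each gene in each called cell were deposited by the authors, from Cell Ranger 5.0.0 and the mm10 reference, with no normalization. Members and gene lists were chosen with earlier results of these data known.

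Cells between the 5th and 95th percentile of genes and UMIs of their library with at most 10% mitochondrial UMIs and genes in at least 3 cells were kept. The methods do not state whether limits were set by library. Seurat 5.3.0 (R 4.3.3, Matrix 1.6.5) log-normalized cells to 10000 UMIs and clustered them at resolution 0.2 on 15 components of 2000 variable features, less the 73 ribosomal protein genes among them. Clusters were named by marker lists, with margins set after they were seen. Neutrophils were reclustered at resolution 0.25 with anchors between libraries, also without genes differing by over 0.5 log2 between them. Scrublet (scanpy 1.11.5) called no APP/PS1 cell at its own threshold, so the WT threshold was used for both (9.04% and 7.29% of cells), chosen after the calls were seen. Called doublets were removed in an alternative only.

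UMIs were summed per type and library. Ratios have exact conditional, CPM exact Poisson and shares Clopper-Pearson intervals, from scipy 1.17.1 and tested on simulated counts. Named were the 5 highest and lowest neutrophil ratios, the 6 most abundant members, the 5 of widest range, paralogs, stalk genes, Rpsa, Rpl26 and Rpl29, and other genes after their values were seen. Results for some single genes are not reported here. Other cell filters, clusterings, minimum counts, thinning, edgeR 4.0.16 TMM factors, totals without abundant classes and means over cells were alternatives. Promoters are from RefSeq and shared 3′ ends from GENCODE M21.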

Additional observations from a re-analysis of the deposited data

Results flagged for a closer look

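The summed ribosomal protein log2 ratio of APP/PS1 over WT had intervals on opposite sides of 0 in different cell types. It was 0.0445 in neutrophils, 0.0187 in classical monocytes and 0.0607 in B cells, and −0.0861 in nonclassical monocytes, −0.192 in CD8 T cells and −0.0891 in NK cells. The neutrophil value turned to −0.000269 with totals without the abundant classes, the classical monocyte value turned to −0.0218 or −0.0173 under other alternatives, and B cells of 1500 to 4000 UMIs had a lower share in APP/PS1, so no direction is given for these 3 types. Rpl10a was at −0.305 in neutrophils and 0.0979 in B cells. Rpl5 was at 0.221 in neutrophils and −0.132 in CD8 T cells, and Rpl22l1 at 0.298 in neutrophils and −0.191 in NK cells. With 1 library for each genotype, none of these differences between types was tested.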

How the results depend on the processing

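Rpl29 as the single member past 0.5 log2 in neutrophils, with 0 higher, was found under all 10 alternatives. The near-zero neutrophil sum and the B cell distance moved by more than their narrow counting intervals. The summed neutrophil log2 ratio of 0.0445 was 0.0490 with ribosomal protein genes among the clustering features and 0.00223 with TMM factors, and turned to −0.000269 with totals without the abundant gene classes. The B cell to neutrophil log2 ratio of 2.998 was 2.96 without percentile limits, 3.06 with doublets removed, 2.95 as a mean over cells, 1.99 with TMM factors and 3.32 with totals without the abundant classes. The classical monocyte sum turned to −0.0218 with percentiles over both libraries and to −0.0173 with doublets removed. The cause was not tested. Of all genes in neutrophils, 4.16% were lower and 3.51% higher with TMM factors, 4.20% and 3.46% with totals without the abundant classes, 6.58% and 8.70% with at least 20 UMIs, and 2.43% and 2.41% with at least 500. These 2 scalings moved the median of all genes from 0.054 to 0.011 and 0.0088.

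Leaving out a replicate was not possible with 1 library in each group. No paired analysis was possible because the result comes from no test. Pooling, 1 library per genotype, shared 3′ ends and rare types of under 100 cells limit what the values show.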
